A study of Mus musculus with 12 samples.

Results

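The genes described here encode the enzymes of glycolysis and the genes that cells switch on when oxygen is short, measured by bulk RNA-seq in 12 mouse prostate tumours. The genes were listed by symbol for their known roles, with earlier results of these data known: 16 glycolytic enzymes, 3 transporters for glucose or lactate, 3 regulators of glycolytic flux, 3 genes of oxygen sensing and 8 other targets of the hypoxia response. All 33 symbols were among the 23479 in the count table, and 32 were among the 15082 genes with enough counts to be tested. The tumours arose in the prostate of C57BL/6J mice given 100000 PTE-82 cells, mouse prostate cancer cells labelled as positive for TMPRSS2-ERG. The cells were in 40 µl of a PBS and Matrigel mix. There were 3 tumours in each of 4 groups: control IgG, anti-CSF1 (an antibody against CSF1, the growth factor that macrophages need), Lupron (0.6 mg per mouse on day 4, a hormone analogue that lowers testosterone) and Lupron+anti-CSF1, called the combination below. Mice had antibody on days 9 and 14 after injection, and on day 17 they were perfused and the tumours frozen. The sources used here give neither the age of the mice nor any IgG treatment of the Lupron group. The tumours are numbered as replicates without naming the mouse of each, so p-values measure the spread between these samples. All tumours came from 1 cell line in hosts with their own immune cells, and each piece of tissue held tumour and host cells together.

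Glycolysis turns glucose into pyruvate in a chain of enzymes, and lactate dehydrogenase then turns pyruvate into lactate, which leaves the cell through lactate transporters. The transcription factor HIF, whose oxygen-sensitive subunit is encoded by Hif1a, accumulates when the prolyl hydroxylases encoded by Egln1 and Egln3 lack oxygen. HIF is known to switch on most glycolytic genes, the glucose transporter Slc2a1, the blood vessel growth factor Vegfa and the hydroxylase gene Egln3 itself, so these genes often rise together in poorly perfused parts of a tumour. Normal prostate epithelium is known for secreting citrate rather than oxidising it.

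Levels are given as CPM, counts scaled to a common library size with TMM factors, and means are followed by the SD over 3 tumours. The 12 libraries held 20584363 to 29965355 counts, and their RNA integrity numbers ran from 8.2 to 9.8. Differences are log2 fold changes ± standard error from edgeR's quasi-likelihood test fitted to all 12 libraries. Genes with a Benjamini-Hochberg adjusted p under 0.05 over the 15082 tested are said to pass or to be called. Bulk RNA cannot tell fewer cells of a type from less RNA per cell.

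The IgG tumours differed from each other in genes of normal tissue, and this touches every comparison with IgG. Summed smooth muscle markers (9 of 9 in the table) stood at 639, 2708 and 11626 CPM in IgG replicates 1, 2 and 3, and at 383 to 1628 CPM in the other 9 tumours. Markers of normal prostate secretion (7 of 8) summed to 2592, 18962 and 51452 CPM in the same 3 tumours, and proliferation markers (12 of 12) to 2436, 2125 and 162 CPM, against 1285 to 2730 CPM elsewhere. Seminal vesicle genes varied widely in every group. They summed to 493 to 106891 CPM with IgG and 268 to 101323 CPM with anti-CSF1. With Lupron they summed to 9262 to 372271 CPM and with the combination to 3578 to 75570 CPM. Lupron replicate 2 was the highest of the 12 tumours. Comparisons without IgG thus also hold tumours uneven in this RNA. Erg, the gene of the labelled fusion and also an endothelial gene, was detected in every tumour at 8.01 to 22.4 CPM. It was lowest in IgG replicate 3 and highest in anti-CSF1 replicate 3, as were summed endothelial markers (193 and 578 CPM), so it is not read as a measure of injected cells. Results are therefore also given without IgG replicates 2 and 3, which leaves IgG replicate 1 as the only IgG tumour, assumed to vary like the other groups.

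Per kilobase of exon (GENCODE M21 on GRCm38), the highest median level over the 12 tumours was that of Gapdh at 413 CPM per kb. Pkm, Ldha and Aldoa followed at 256, 255 and 241 CPM per kb, and the ranges of these 3 over the tumours overlapped almost entirely (108 to 380, 73.5 to 444 and 141 to 384 CPM per kb). Pgk1, Tpi1 and Hif1a came next at 121, 119 and 114 CPM per kb, and again did not separate beyond their ranges. The lowest levels belonged to Pfkfb4 (0.993 CPM per kb), the glucose transporter Slc2a3 (0.603) and the neuronal enolase Eno2 (0.327). The common enolase Eno1 had 5 counts in all 12 libraries, 4 of them in anti-CSF1 replicate 1 and 1 in Lupron replicate 1, and was not tested. The row Gm5506, a near-identical copy of Eno1 that RefSeq names Eno1b, had 18 to 319 counts per library and 1993 in all, so the level of Eno1 is uncertain here. Gapdh, Pgk1, Ldha, Aldoa, Tpi1, Pgam1 and Pkm also have processed pseudogenes that can share their reads, and the sources used here do not say how shared reads were counted.

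The start-site windows of these genes are rich in the letters that HIF is known to bind, ACGTG or GCGTG on either strand. RefSeq windows of 250 bases before to 50 bases after the start (GRCm38.p6, the same build as mm10) were found for 31 of the 33 genes. At least 1 match was present in 28 of the 31 (90.3%), against 64.9% of 11009 tested genes with a window and 46.7% of all 27025 genes with a window, counting any window of a gene. Matches were in 10 of 10 oxygen sensing and other hypoxia genes with a window and in 13 of 16 enzymes (81.2%). Counted per window, 36 of 45 windows of these genes held a match (80.0%), against 43.8% of all 32851 windows. The genes were listed for their known roles, targets of the hypoxia response among them, and windows were not matched for base composition. A match describes letters in the window and not a bound site. The windows below belong to Pfkfb4, the only gene of the group that passed a test, to Hif1a, and to Ankrd37, Adm and Slc16a3, the 3 genes that varied most between tumours of the same treatment. They lie at chr9:108991652-108991951 on the plus strand (Pfkfb4), chr12:73907617-73907916 on the plus strand (Hif1a), chr8:45999801-46000100 on the minus strand (Ankrd37), chr7:110627407-110627706 on the plus strand (Adm) and chr11:120948817-120949116 on the plus strand (Slc16a3). Each is written 5′ to 3′ on its gene's strand, with matches of either strand in capitals. Overlapping matches were counted separately, so CACGTG in the Hif1a window counts as 2.
Pfkfb4: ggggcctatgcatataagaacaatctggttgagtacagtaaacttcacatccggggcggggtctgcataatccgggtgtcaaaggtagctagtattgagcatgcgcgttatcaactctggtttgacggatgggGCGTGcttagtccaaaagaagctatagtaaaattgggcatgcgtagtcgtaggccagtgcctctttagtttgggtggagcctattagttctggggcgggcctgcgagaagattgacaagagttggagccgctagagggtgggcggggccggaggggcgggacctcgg
Hif1a: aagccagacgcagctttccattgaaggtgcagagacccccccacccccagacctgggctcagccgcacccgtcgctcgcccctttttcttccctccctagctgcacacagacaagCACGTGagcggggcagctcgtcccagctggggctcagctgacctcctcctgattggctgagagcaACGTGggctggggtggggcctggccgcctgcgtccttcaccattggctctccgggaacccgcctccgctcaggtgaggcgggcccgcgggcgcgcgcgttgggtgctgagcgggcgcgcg
Ankrd37: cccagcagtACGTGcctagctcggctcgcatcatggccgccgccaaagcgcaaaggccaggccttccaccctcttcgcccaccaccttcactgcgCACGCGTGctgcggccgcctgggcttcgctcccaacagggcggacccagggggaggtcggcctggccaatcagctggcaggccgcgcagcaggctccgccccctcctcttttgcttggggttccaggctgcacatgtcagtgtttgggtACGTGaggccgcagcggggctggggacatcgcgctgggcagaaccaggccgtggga
Adm: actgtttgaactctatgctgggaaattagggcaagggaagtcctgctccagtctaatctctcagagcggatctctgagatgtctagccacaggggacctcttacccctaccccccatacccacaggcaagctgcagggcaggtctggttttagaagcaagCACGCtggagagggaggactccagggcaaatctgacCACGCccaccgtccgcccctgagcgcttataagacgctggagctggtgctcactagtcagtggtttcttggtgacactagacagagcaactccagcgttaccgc
Slc16a3: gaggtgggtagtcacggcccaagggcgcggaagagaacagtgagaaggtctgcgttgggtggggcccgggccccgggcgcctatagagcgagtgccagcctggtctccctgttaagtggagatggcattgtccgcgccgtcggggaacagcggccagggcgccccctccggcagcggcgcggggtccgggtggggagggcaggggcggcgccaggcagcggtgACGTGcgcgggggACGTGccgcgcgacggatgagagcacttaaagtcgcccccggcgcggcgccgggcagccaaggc
The Pfkfb4 window held 1 match, Hif1a 3, Ankrd37 4, Adm 2 and Slc16a3 2.

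**Figure D1:**
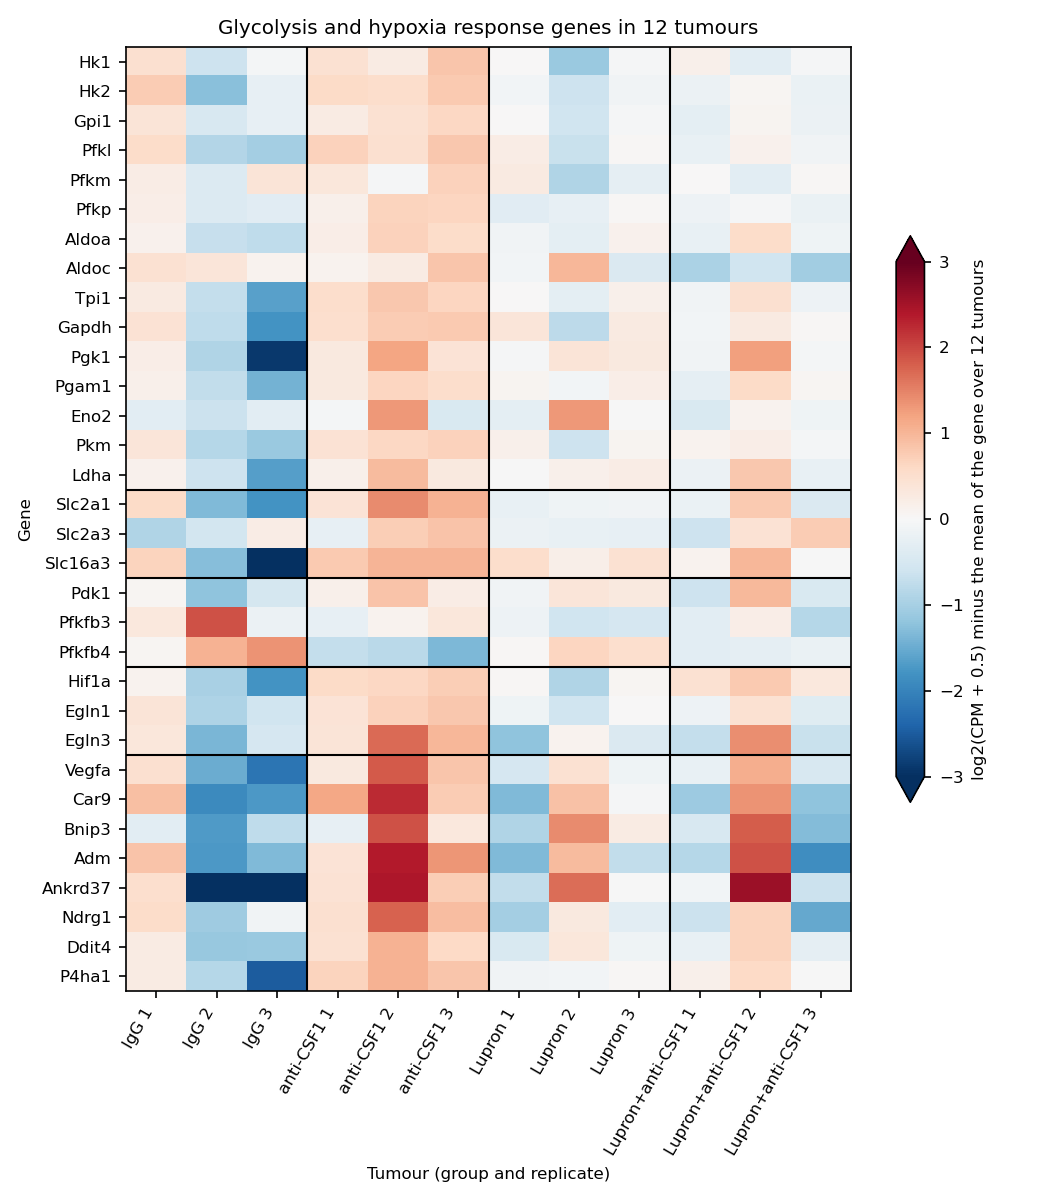
Level of the 32 tested genes in each of the 12 tumours, as log2(CPM + 0.5) minus the gene's mean over the tumours (colour), with genes in rows grouped by role and tumours in columns grouped by treatment. IgG replicates 2 and 3 are below the mean for most genes, anti-CSF1 replicates 2 and 3 are above it, and Pfkfb4 runs the other way.

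Blocking CSF1 was compared first as an average over tumours with and without Lupron, 6 tumours against 6. Pfkfb4 fell and was the only one of 32 genes to pass, with a log2 change of −1.39 ± 0.27 (2.62-fold lower, adjusted p = 0.0296). Over all genes 282 of 15082 passed (1.87%), 270 of them lower (1.79%) and 12 higher (0.0796%), so 1 of 32 is close to the background. Pfkfb4 encodes an enzyme that sets the level of the sugar phosphate that stimulates phosphofructokinase, and the gene lies on chromosome 9 from 108991778 to 109032228. Its level was 5.40, 11.2 and 13.9 CPM in IgG tumours 1 to 3, 2.93, 2.75 and 1.71 CPM with anti-CSF1, 5.24, 8.38 and 7.54 CPM with Lupron and 4.07, 4.16 and 4.44 CPM with the combination. Each of the 6 antibody-treated tumours was lower than each of the other 6, which was true of 255 of 15082 genes (1.69%). The counts behind these values ran from 48 to 390 per library. Macrophage markers (13 of 14 in the table, none at 0) were also lower with the antibody: they summed to 283 to 474 CPM in tumours with the antibody, 532 to 1857 CPM in IgG and 1523 to 1880 CPM in Lupron tumours. Among tumours without the antibody, IgG replicate 3 had the fewest macrophage markers and the most Pfkfb4. Prostate secretion markers summed to 2592, 18962 and 51452 CPM in IgG tumours 1 to 3 and to 153, 11710 and 7001 CPM in Lupron tumours 1 to 3. This was the same order as Pfkfb4. With anti-CSF1 the secretion markers summed to 981, 50.5 and 213 CPM and with the combination to 1700, 1884 and 1756 CPM. Neither group had the order of Pfkfb4. Lupron replicate 1, at 153 CPM, lay below every combination tumour in these markers but above each in Pfkfb4. The part of either list in the fall of Pfkfb4 was not tested. Leaving out IgG replicates 2 and 3 ended the call (−0.94 ± 0.27, adjusted p = 0.177), as did a replicate block (−1.34 ± 0.28, adjusted p = 0.0721). Of 12 fits with 1 tumour removed, 3 kept it below 0.05, those without IgG replicate 1, IgG replicate 3 or Lupron replicate 1.

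Hif1a had the smallest p among genes with a positive estimate in the antibody average, at 1.03 ± 0.30 (adjusted p = 0.121), which did not pass. Hif1a lies on chromosome 12 from 73901375 to 73947530. Its level was 625, 294 and 167 CPM in IgG tumours 1 to 3, 867, 884 and 958 CPM with anti-CSF1, 589, 309.6 and 597 CPM with Lupron and 789.7, 991 and 716 CPM with the combination. Each of the 6 antibody-treated tumours was higher than each of the other 6, which was true of 106 of 15082 genes (0.703%). Within the groups without antibody, the lowest Hif1a levels were those of IgG replicate 3, IgG replicate 2 and Lupron replicate 2, the 3 tumours with the highest smooth muscle and prostate secretion markers. The part of that tissue in the difference was not tested. DESeq2, which called more of all genes than edgeR, called Hif1a (1.02 ± 0.29, adjusted p = 0.00903). Without IgG replicate 1 edgeR called it too (1.35 ± 0.24, adjusted p = 0.0127), when 1610 of all 15082 genes passed, against 282 with all tumours. Leaving out IgG replicate 1 keeps only IgG replicates 2 and 3, the IgG tumours with more smooth muscle and prostate secretion markers. Without IgG replicates 2 and 3 the difference was 0.64 ± 0.25 (adjusted p = 0.517).

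**Figure D2:**
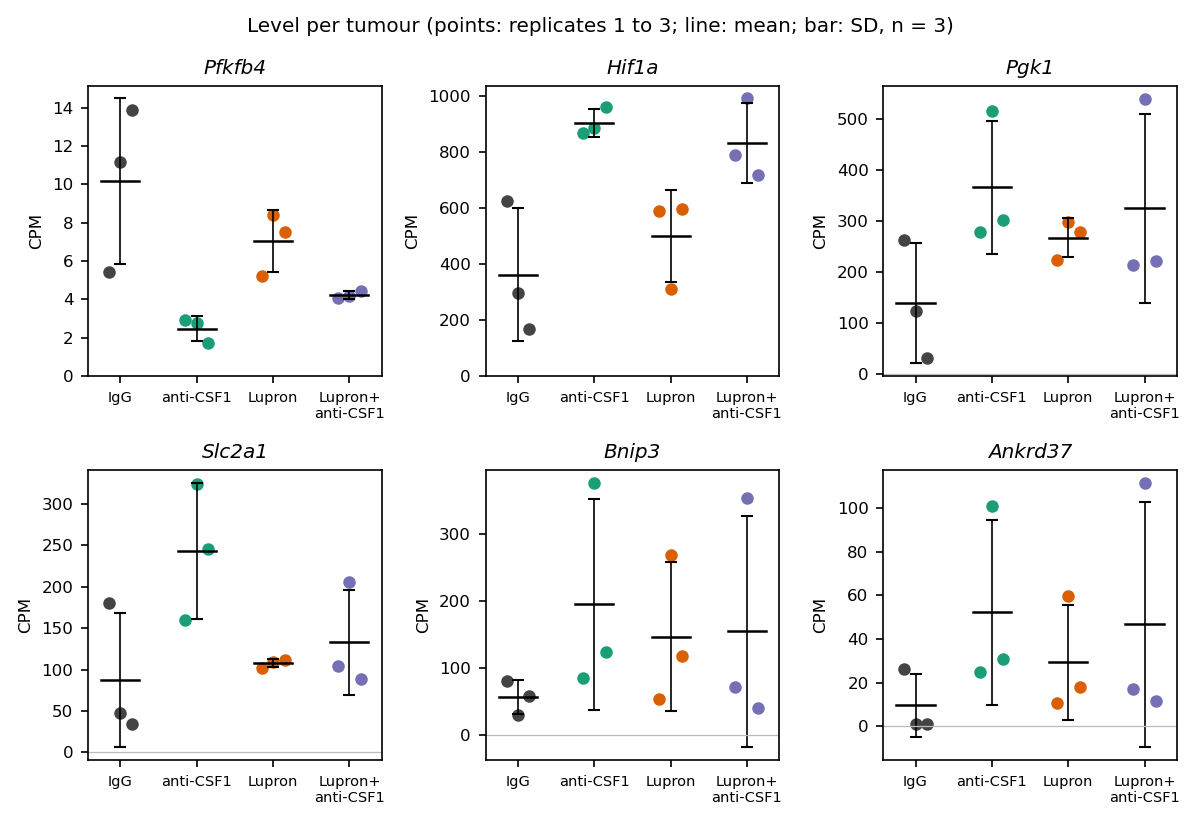
Level in CPM (vertical axes, linear) of 6 genes in each tumour, by treatment group. Points are tumours in replicate order, lines are means and bars the SD of 3 tumours. Pfkfb4 and Hif1a separate tumours with and without the antibody, while Pgk1, Slc2a1, Bnip3 and Ankrd37 overlap between antibody-treated tumours and the others.

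The other genes mostly had positive estimates for the antibody without passing. In the average over Lupron, 29 of 32 estimates were positive with a median of 0.58, where all tested genes had a median of 0.02. An unadjusted p under 0.05 was reached by 12 of the 32, against 2873 of 15082 genes (19.0%). The median fell to 0.25 without IgG replicates 2 and 3 and stood at 0.46 without IgG replicate 3 alone. Without IgG replicate 1, 13 of the 32 genes passed, 12 of them higher, when 1610 of all 15082 genes passed. After Pfkfb4 and Hif1a the smallest p belonged to P4ha1 (0.91 ± 0.35, adjusted p = 0.202), Egln3 (1.14 ± 0.46, adjusted p = 0.216) and Ddit4 (0.71 ± 0.29, adjusted p = 0.223). Egln3 had 0.60 without the combination's replicate 2. By role, the median was 0.48 over 15 enzymes, 0.78 over 3 transporters and −0.37 over 3 regulators of flux. It was 1.03 over 3 oxygen sensing genes and 0.98 over 8 other hypoxia targets. Without IgG replicates 2 and 3 these medians were 0.16, 0.37, −0.05, 0.64 and 0.47 in the same order.

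Without Lupron, anti-CSF1 tumours were set against IgG tumours. No gene of the group passed, and 1 of 15082 genes did (0.00663%). At an unadjusted p under 0.05 there were 17 of 32, against 3446 genes (22.8%). Estimates were positive for 30 of 32 with a median of 1.08 (0.01 over all genes), and the median was 0.38 without IgG replicates 2 and 3. DESeq2 called 8 of the 32 and 1841 of all 15082 genes. Without IgG replicate 1 edgeR called 20 of the 32 and 2616 of all 15082 genes. In 15 of the 32 genes all 3 anti-CSF1 tumours lay above all 3 IgG tumours, against 1668 of 15082 genes (11.1%), and in Pfkfb4 all lay below, against 1932 genes (12.8%). The smallest p were those of Pfkfb4 (−2.04 ± 0.39, adjusted p = 0.0875), Hif1a (1.32 ± 0.43, adjusted p = 0.119), Pfkp (0.67 ± 0.22, adjusted p = 0.12), P4ha1 (1.50 ± 0.50, adjusted p = 0.125) and Ddit4 (1.24 ± 0.42, adjusted p = 0.126). Smooth muscle markers summed to 431 to 626 CPM in anti-CSF1 tumours and 639 to 11626 CPM in IgG tumours, and prostate secretion markers to 50.5 to 981 CPM and 2592 to 51452 CPM. Their part in these estimates was not tested.

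The antibody was also compared with Lupron in both groups, where no IgG tumour enters the means. In the combination against Lupron, 0 of 32 genes passed and 0 of 15082 did (0%) by edgeR. DESeq2 called 236 genes and 0 of the 32. At an unadjusted p under 0.05 there were 642 genes (4.26%) and 1 of the 32, the brain-type aldolase Aldoc (−1.31 ± 0.44, adjusted p = 0.569). Aldoc stood at 3.96, 8.83 and 2.99 CPM with Lupron and 1.96, 2.61 and 1.79 CPM with the combination. Every combination tumour lay below every Lupron tumour, and the gap between Lupron replicate 3 and the highest combination tumour was small beside the spread of the Lupron tumours. Groups also separated for Pfkfb4 (−0.74 ± 0.38, lower) and Hif1a (0.74 ± 0.42, higher), where 1045 of 15082 genes separated lower (6.93%) and 884 higher (5.86%). The oxygen sensor Egln3 (0.79 ± 0.64) and Eno2 (−0.80 ± 0.66) had the next smallest p. Without Lupron replicate 2, Aldoc had −0.71 and Eno2 −0.002, while Egln3 turned to −0.28 without the combination's replicate 2. The median over the 32 was 0.15 (0.04 over all genes) with 28 positive. It was −0.16 with 8 positive without the combination's replicate 2, and 0.07 without Lupron replicate 2. Leaving out replicate 1 of the combination gave 0.25, and leaving out its replicate 3 gave 0.28.

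**Figure D3:**
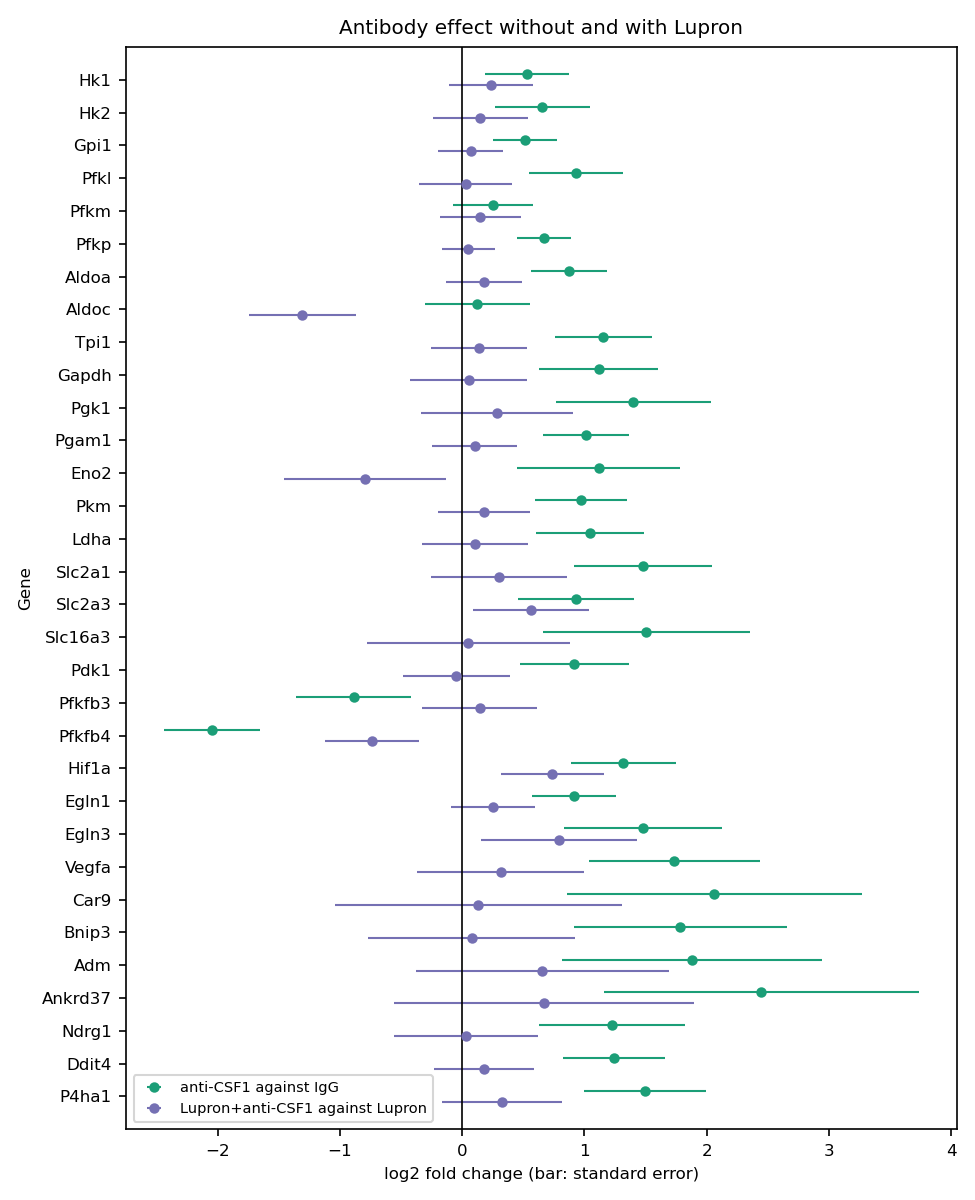
Log2 fold change (horizontal axis; bars, standard error) of the 32 tested genes for anti-CSF1 against IgG and for Lupron+anti-CSF1 against Lupron, with genes in rows. Most points of the first comparison lie near 1 and most of the second near 0; the difference between the comparisons passed for 0 genes.

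Most glycolytic enzymes had their widest range among the IgG tumours. Gapdh stood at 1894, 837 and 406 CPM in IgG tumours 1 to 3, 1996, 2397 and 2417 CPM with anti-CSF1, 1815, 818 and 1706 CPM with Lupron and 1333, 1710.4 and 1459 CPM with the combination. IgG replicate 1 was near the anti-CSF1 tumours, and IgG replicate 3 and Lupron replicate 2 were low. Pgk1, which makes the first ATP of the pathway, stood at 263, 123 and 30.1 CPM with IgG and reached 279, 517 and 303 CPM with anti-CSF1. With Lupron it stood at 224, 298 and 279 CPM and with the combination at 214, 539.6 and 221 CPM. The highest tumours were anti-CSF1 replicate 2 and the combination's replicate 2. Ldha, lactate dehydrogenase, followed Pgk1, at 836, 496 and 243 CPM with IgG, 853, 1469 and 932 CPM with anti-CSF1, 758, 853 and 891 CPM with Lupron and 683, 1346 and 658 CPM with the combination. Its top tumours were the same pair as for Pgk1. Of the 15 tested enzymes, 14 were highest among IgG tumours in replicate 1, and Pfkm was highest in replicate 3. Over all 12 tumours, 8 of 15 enzymes were lowest in IgG replicate 3, 3 in IgG replicate 2, 3 in Lupron replicate 2 and 1 in the combination's replicate 3.

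The remaining enzymes are given by their lowest, median and highest level over the 12 tumours. The hexokinases that trap glucose in the cell ranged over 68.8, 148 and 266 CPM for Hk1 and 30.9, 70.1 and 129 CPM for Hk2. Gpi1, the isomerase of the next step, had 164, 247 and 385 CPM. The phosphofructokinases, which commit sugar to glycolysis, had 49.7, 107 and 176 CPM (liver type, Pfkl), 9.24, 18.0 and 28.9 CPM (muscle type, Pfkm) and 55.4, 69.5 and 118 CPM (platelet type, Pfkp). Pfkp was the steadiest gene of the group, with a within-group SD of 0.25 on the log2 scale. Aldoa, the main aldolase, had 409, 702 and 1117 CPM, and Aldoc had 1.79, 4.58 and 8.83 CPM. Tpi1, which interconverts the aldolase products, had 99.9, 329 and 542 CPM, Pgam1, the mutase, 43.0, 126 and 180.5 CPM, and Pkm, pyruvate kinase, 538, 1280.0 and 1902 CPM. Eno2 had 1.00, 1.54 and 5.31 CPM and its highest values were in anti-CSF1 replicate 2 and Lupron replicate 2. For 7 of 15 enzymes (Aldoa, Tpi1, Gapdh, Pgk1, Pgam1, Pkm and Ldha) all anti-CSF1 tumours lay above all IgG tumours, against 11.1% of all genes. The gap was narrow for some, such as 853 against 836 CPM for Ldha and 1591 against 1511 CPM for Pkm, and the smallest p of an enzyme there was that of Pfkp, whose groups overlapped.

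Among transporters, Slc16a3 moved most between IgG tumours. Slc16a3, which exports lactate, stood at 105, 27.0 and 2.53 CPM in IgG tumours 1 to 3, a 41.5-fold range, against 114, 134 and 134 CPM with anti-CSF1, 94.8, 74.2 and 90.4 CPM with Lupron and 71.2, 132 and 65.6 CPM with the combination. IgG replicate 3 was the lowest of all 12, and the anti-CSF1 tumours lay within 1.18-fold of each other. The main glucose transporter Slc2a1 stood at 180.0, 47.5 and 34.2 CPM with IgG, 160.3, 324 and 246 CPM with anti-CSF1, 102, 109.6 and 111 CPM with Lupron and 104, 206 and 88.3 CPM with the combination. IgG replicate 1 exceeded the lowest anti-CSF1 tumour, so the groups overlapped. Slc2a3, a glucose transporter of neurons and white blood cells, had 2.47, 4.37 and 9.56 CPM as lowest, median and highest, and its estimate in the antibody average was 0.75 ± 0.34 (adjusted p = 0.255).

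The regulators of flux did not move as a block. Pdk1, the kinase that keeps pyruvate out of mitochondria, had 0.43 ± 0.31 in the antibody average (adjusted p = 0.447) and ranged over 40.4, 101 and 184 CPM. Pfkfb3, a relative of Pfkfb4 that favours glycolysis, had −0.37 ± 0.33 (adjusted p = 0.535) and ranged over 38.3, 61.7 and 259 CPM, with the top value in IgG replicate 2. Among oxygen sensing genes, Egln1 had 0.58 ± 0.24 (adjusted p = 0.229), with 82.2 ± 41.7 CPM in IgG, 155 ± 22.3 CPM in anti-CSF1, 85.2 ± 18.3 CPM in Lupron and 101 ± 31.4 CPM in combination tumours (SD, n = 3). Egln3 stood at 54.4, 16.3 and 30.2 CPM with IgG, 55.9, 139.6 and 86.0 CPM with anti-CSF1, 18.3, 46.5 and 31.6 CPM with Lupron and 25.9, 114 and 26.9 CPM with the combination. The top tumours were anti-CSF1 replicate 2 and the combination's replicate 2, each well above the others of its group.

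The 8 other hypoxia targets varied widely between tumours of the same treatment. Their median within-group SD was 1.06 on the log2 scale, against 0.42 over all tested genes and 0.46 over the 15 enzymes, and 8 of 8 lay above the all-gene median. Over 37 tested hypoxia response genes outside the group it was 0.60, with 25 above the all-gene median, and over the 3 transporters 0.75. Over the 32 genes it was 0.57, and 27 lay above the all-gene median. The largest were Ankrd37 (1.65), Adm (1.42), Slc16a3 (1.33), Car9 (1.26) and Bnip3 (1.19). This SD pools the 4 groups and was not computed without IgG replicates 2 and 3. P4ha1 ranged 6.82-fold among IgG tumours and 1.29-, 1.10- and 1.52-fold with anti-CSF1, Lupron and the combination. Slc16a3 ranged 41.5-fold with IgG and 1.18-, 1.28- and 2.02-fold in those groups. Bnip3 went the other way, at 2.65-fold with IgG and 4.45-, 5.03- and 8.77-fold in those groups. The genes named for their spread were chosen after their values were seen.

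The same tumour of each group held the top values. IgG replicate 1, anti-CSF1 replicate 2 and the combination's replicate 2 were highest in their group for 8 of 8 hypoxia targets, and Lupron replicate 2 for 7 of 8, all but P4ha1. These tumours were highest in their group for 33.4%, 39.9%, 39.5% and 40.5% of all tested genes. Lupron replicate 1 and the combination's replicate 3 were lowest for 8 of 8, against 35.0% and 32.3% of all genes. Of 37 other hypoxia response genes tested, 19, 21 and 25 were highest in IgG replicate 1, anti-CSF1 replicate 2 and the combination's replicate 2, and 15 in Lupron replicate 2, as many as in Lupron replicate 1.

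Ankrd37, a small ankyrin repeat protein gene known as a HIF target, stood at 26.2, 1.21 and 1.25 CPM with IgG, 24.8, 101 and 30.9 CPM with anti-CSF1, 10.7, 59.5 and 18.0 CPM with Lupron and 17.3, 111 and 11.5 CPM with the combination. The highest tumour exceeded the lowest by 92.0-fold, and within the combination alone the range was 9.71-fold. Adm, which encodes the vessel-dilating peptide adrenomedullin, stood at 36.9, 5.80 and 7.87 CPM with IgG, 27.3, 108 and 51.7 CPM with anti-CSF1, 7.81, 39.5 and 12.0 CPM with Lupron and 11.0, 77.3 and 5.20 CPM with the combination, a 14.9-fold range. Bnip3, a mitophagy receptor gene, stood at 80.8, 30.5 and 58.8 CPM with IgG, 84.7, 376 and 125 CPM with anti-CSF1, 53.6, 269.6 and 118 CPM with Lupron and 71.6, 354 and 40.3 CPM with the combination. In each group the same tumour was highest for these 3 genes. The groups overlapped, except that every anti-CSF1 tumour exceeded every IgG tumour for Bnip3, by 84.7 against 80.8 CPM at the nearest. Car9, the surface carbonic anhydrase used as a hypoxia marker, was low in all tumours at 0.292, 3.44 and 13.4 CPM and rested on as few as 7 counts in a library. Vegfa stood at 274, 69.8 and 42.5 CPM with IgG, 241, 699 and 346 CPM with anti-CSF1, 137, 267 and 179 CPM with Lupron and 166, 419 and 139.9 CPM with the combination. Ndrg1, also known as an androgen-responsive gene, ranged over 22.8, 72.4 and 228 CPM, Ddit4, a stress inhibitor of mTOR signalling, over 27.3, 64.0 and 125 CPM, and P4ha1, a collagen prolyl hydroxylase subunit, over 24.0, 146 and 281 CPM (lowest, median and highest). Their top tumour was anti-CSF1 replicate 2.

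RNA and library values moved with this ordering. The 28S to 18S area ratio in the labels was 1.4 in IgG replicate 1, 1.3 in anti-CSF1 replicate 2, 0.7 in Lupron replicate 2 and 1.2 in the combination's replicate 2, each the lowest of its group, where the other tumours had 1.4 to 2.3. The total counts of these 4 libraries, 23895555, 22471098, 22585189 and 20584363, were also the lowest of each group. RNA integrity numbers were 9.4, 9.8, 9.2 and 9.4, the highest of the group in all but Lupron. Summed endothelial markers (8 of 8, none at 0) were 424, 373, 197 and 238 CPM in the 4 tumours and 193 to 578 CPM in the other 8. Proliferation markers were 2436, 1791, 1285 and 2221 CPM. Smooth muscle markers were 639, 626, 1628 and 418 CPM in the same 4 tumours, and prostate secretion markers 2592, 50.5, 11710 and 1884 CPM. IgG replicate 1 was the lowest of its group in both lists, and Lupron replicate 2 the highest of its group in both. Anti-CSF1 replicate 2 was highest in smooth muscle and lowest in secretion markers of its group, and the combination's replicate 2 the reverse. The part of any of these in the spread of hypoxia genes was not tested, and these values were compared after the ordering had been seen.

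**Figure D4:**
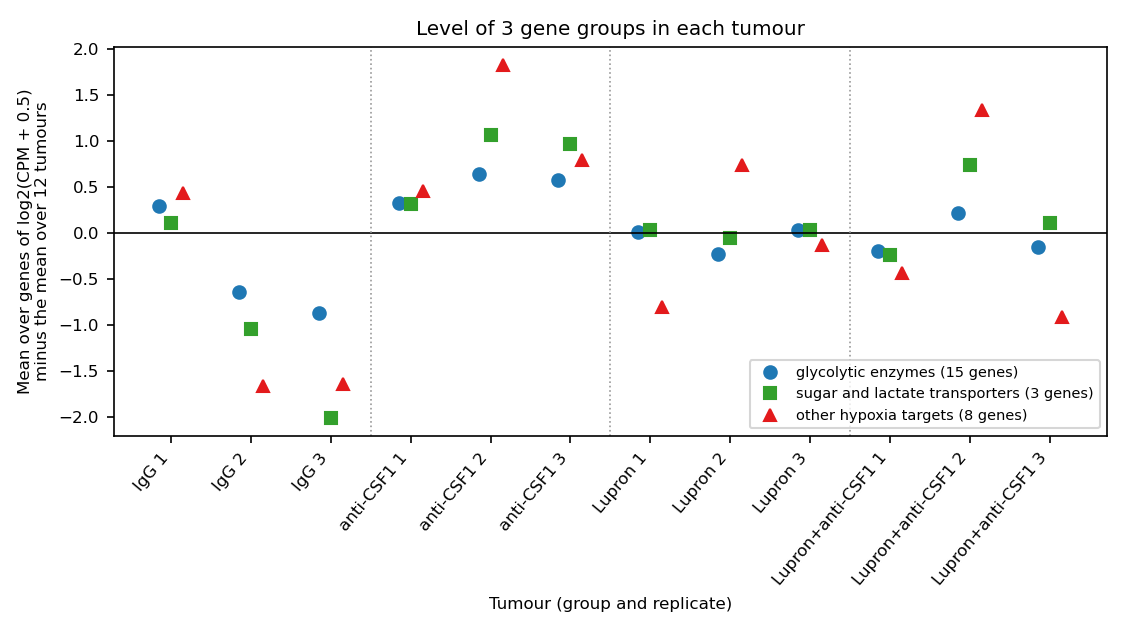
Mean over the genes of 3 roles of log2(CPM + 0.5) minus the gene's mean over 12 tumours (vertical axis), for each tumour (horizontal axis, by treatment). Other hypoxia targets (triangles) run from −1.66 to 1.83, the transporters (squares) from −2.01 to 1.06 and the enzymes (circles) from −0.87 to 0.63. Triangles are highest in replicate 1 of IgG and in replicate 2 of the other groups.

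Lupron was compared as an average over tumours with and without the antibody. No gene passed by edgeR, 0 of 32 and 0 of 15082 (0%). DESeq2 called 12 genes, 0 of them in the group. At an unadjusted p under 0.05 there were 2 of 32 genes against 1366 of 15082 (9.06%). In 0 of 32 genes did the 6 Lupron-treated tumours separate from the other 6, against 0.152% of genes higher and 0.278% lower. The smallest p belonged to Pfkfb3 (−0.86 ± 0.33), Aldoc (−0.74 ± 0.31), Pfkp (−0.33 ± 0.15), Ndrg1 (−0.78 ± 0.42) and Gpi1 (−0.35 ± 0.19), each with an adjusted p of 0.525. Pfkfb3 stood at 86.5, 259 and 60.8 CPM with IgG, 58.5, 74.2 and 87.2 CPM with anti-CSF1, 62.6, 45.4 and 48.4 CPM with Lupron and 55.0, 79.5 and 38.3 CPM with the combination. IgG replicate 2 stood apart, and without it the difference was −0.42. The median over the 32 genes was −0.08 with 11 positive, against −0.02 over all genes. It was 0.25 without IgG replicate 1 and −0.47 without IgG replicates 2 and 3, so its direction rests on which IgG tumours are used.

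Whether Lupron changed the antibody's effect was tested as an interaction. No gene passed by edgeR, 0 of 32 and 0 of 15082 (0%), where DESeq2 called 188 genes and 0 of the 32. At an unadjusted p under 0.05 there were 2 of 32 and 1021 of 15082 genes (6.77%). Estimates were negative for 30 of 32 with a median of −0.96 (−0.02 over all genes). The 2 smallest p were those of Pfkfb4 (1.31 ± 0.54, adjusted p = 0.677) and Aldoc (−1.43 ± 0.61, adjusted p = 0.708), followed by Eno2 (−1.91 ± 0.94), Pfkp (−0.62 ± 0.31) and Pgam1 (−0.91 ± 0.50). The median was −1.48 without IgG replicate 1 and −0.22 without IgG replicates 2 and 3. Without anti-CSF1 replicate 2, Eno2 had −1.03, without Lupron replicate 2 Aldoc had −0.84, and without IgG replicate 3 Pgam1 had −0.60.

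The other pairs of groups gave no call among the 32 genes by edgeR. For Lupron against IgG, 0 of 15082 genes passed (0%), and DESeq2 called 404 genes and 0 of the 32. The median over the 32 was 0.30, −0.36 without IgG replicates 2 and 3, and 1.05 with 28 positive without IgG replicate 1. It was 0.06 and 0.05 without IgG replicates 2 and 3 in turn. Pfkfb3 had the smallest p (−1.38 ± 0.47, adjusted p = 0.284), and Eno2 was the gene whose Lupron tumours lay above every IgG tumour, against 11.1% of genes, while 0 of 32 lay below, against 8.53%. For the combination against anti-CSF1, 0 of 15082 genes passed (0%), 294 had an unadjusted p under 0.05 (1.95%) and 3 of the 32 did. The median was −0.58, 31 of 32 estimates were negative, and 10 of 32 genes had every combination tumour below every anti-CSF1 tumour, against 787 of 15082 (5.22%). These 10 were Hk1, Hk2, Gpi1, Pfkl, Pfkp, Aldoc, Tpi1, Gapdh, Pkm and P4ha1, 9 of them enzymes, with Aldoc (−1.46 ± 0.44) and Pfkp (−0.64 ± 0.22) at the smallest p (adjusted p = 1). Pfkfb4 was the gene with every combination tumour above every anti-CSF1 tumour (0.78 ± 0.38), against 717 genes (4.75%). This comparison holds no IgG tumour, and DESeq2 called 6 genes in it and 0 of the 32. For the combination against IgG, 1 of 15082 genes passed (0.00663%) and 0 of the 32, with a median of 0.60. The smallest p belonged to Pfkfb4 (−1.27 ± 0.38, adjusted p = 0.116), Aldoc (−1.34 ± 0.44, adjusted p = 0.121) and Hif1a (1.20 ± 0.43, adjusted p = 0.133), which DESeq2 called among 2094 genes. Without IgG replicate 1 edgeR called 13 of the 32 and 2229 of all 15082 genes, with a median of 1.14 over the 32. The median was 0.35 and 0.29 without IgG replicates 2 and 3 in turn, −0.24 without both, and 0.13 without the combination's replicate 2.

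Related genes outside the group were counted from 2 lists. Of 31 tested genes of glycolysis, pyruvate and sugar metabolism and 37 of the hypoxia response, 0 passed in the antibody average, where 1.87% of all genes did, and 0 in the Lupron average, the interaction, anti-CSF1 against IgG or the combination against Lupron. In the antibody average the first list had a median of −0.08 with 12 of 31 positive, and the second a median of 0.36 with 25 of 37 positive. Hk3, a hexokinase of white blood cells, came nearest (−2.01 ± 0.46, adjusted p = 0.053), at 6.05, 10.1 and 3.38 CPM in IgG tumours and 3.98, 1.04 and 1.24 CPM with anti-CSF1. With Lupron it stood at 7.37, 4.02 and 6.22 CPM and with the combination at 1.33, 0.480 and 1.51 CPM. The macrophage markers given above were lower in the same tumours, and their part in Hk3 was not tested. The lactate transporter Slc16a7 (−2.51 ± 0.70), the gluconeogenic Fbp1 (−1.95 ± 0.57) and the kinase Pdk2 (−1.58 ± 0.49) followed with adjusted p of 0.106, 0.121 and 0.137. In the hypoxia list the collagen-modifying Plod2 (1.13 ± 0.35, adjusted p = 0.134) and P4ha2 (1.00 ± 0.35, adjusted p = 0.171), with Bhlhe40 (0.93 ± 0.33) and Tmem45a (−1.93 ± 0.66), had the smallest p. In the Lupron average the smallest p of the hypoxia list was that of Stc1, which encodes the hormone stanniocalcin (−1.01 ± 0.21, adjusted p = 0.525). Stc1 stood at 16.6, 10.4 and 21.2 CPM with IgG, 20.1, 22.6 and 26.0 CPM with anti-CSF1, 7.44, 11.0 and 8.23 CPM with Lupron and 10.7, 12.1 and 7.85 CPM with the combination. Rora, a nuclear receptor gene, was the gene of this list whose 6 Lupron-treated tumours lay below all 6 others (−0.93 ± 0.26), against 42 of 15082 genes (0.278%). Ldhb, the other lactate dehydrogenase subunit, led the first list (−1.89 ± 0.64), with 406 CPM in IgG replicate 3 and at most 61.8 CPM elsewhere.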

How the data were processed

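RNA from 12 tumours was measured. Per the labels' protocols, RNeasy Plus columns and a NuGen Ovation library kit were used. The submitters' processing notes name bcl2fastq 2.20.0.422, cutadapt 1.8.1, HTSeq 0.6.1 and genome build mm10. The sources used here name no aligner, annotation or strand setting. The authors deposited raw counts per gene symbol, without normalization.

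The tests used edgeR 4.0.16 in R 4.3.3, with filterByExpr, TMM scaling, 1 mean per group over all 12 libraries, the robust quasi-likelihood F test (two-sided) and Benjamini-Hochberg adjustment over 15082 genes, in 8 comparisons. The standard error was taken as the size of the log2 change over the root of F. The fit was tested on simulated data. Alternatives were RLE and upper-quartile factors, DESeq2 1.42.0, no filter, a stricter filter (1 CPM in 3 libraries), the compared groups alone, a replicate block, each library left out, and IgG replicates 2 and 3 left out. Within-group SDs are of log2(CPM + 0.5).

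Only Lupron and the combination had every same-numbered pair of tumours correlated over 0.1 in their deviations from group means, from 0.143 to 0.219; the labels do not say that numbers pair tumours.

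The members and gene lists were chosen with earlier results of these data known. Genes were named by this rule: every member, the 5 smallest p where fewer than 5 passed, and up to 4 per related list in the antibody and Lupron averages. Marker lists for other cell types were summed as CPM.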

Additional observations from a re-analysis of the deposited data

How the results depend on the processing

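Pfkfb4 in the antibody average and the counts of called genes were what the processing moved. In the antibody average 1 of the 32 genes was called, 2 by DESeq2 (Hif1a added), 0 with a replicate block, 0 without IgG replicates 2 and 3 together, and 0 to 13 when 1 library was left out. For anti-CSF1 against IgG the count was 0, 8 by DESeq2 and 0 to 20 on leaving out 1 library. For the combination against IgG it was 0, 3 by DESeq2 and 0 to 13. The highest counts all came without IgG replicate 1. In the other 5 comparisons every setting run gave 0 of the 32. Egln3 in the combination against Lupron was 0.79, and −0.28 to 1.16 on leaving out 1 library, negative without the combination's replicate 2. Of the log2 changes of named genes recomputed under the alternatives, 454 kept direction and side of the threshold, 11 lost the call, 14 gained it and 1 turned. Only Pfkfb4 in the antibody average was called in the main fit, so the 11 losses were its own. The 454 mostly count genes that were not called in the main fit and stayed so. The cause of these changes was not tested. Over the 4 groups, 8 of 18 same-numbered pairs had a correlation of deviations over 0.1 (range −0.32 to 0.44). Of 12 libraries, 6 matched best with their own number. Anti-CSF1 replicate 2 correlated at 0.388 with Lupron replicate 2 and 0.438 with the combination's replicate 2, and the latter pair at 0.143. Each of these tumours was highest in its group for most other hypoxia targets. IgG replicate 1 and Lupron replicate 1 correlated at 0.391, and they were the highest and the lowest of their groups for 8 of 8 of these targets. IgG replicate 2 had −0.013 with anti-CSF1 replicate 2, 0.088 with Lupron replicate 2 and 0.176 with the combination's replicate 2. What a shared number stands for was not tested. Between Lupron and the combination the 3 pairs had 0.187, 0.143 and 0.219, and the block gave 0 calls there, over the 32 and over all genes. With the replicate block Pfkfb4 had an adjusted p of 0.0721. Over all genes the antibody average gave 282 calls, 1425 by DESeq2, 151 with the block and 65 to 1610 on leaving out 1 library. Anti-CSF1 against IgG gave 1, 0 to 4 under other scalings, filters and designs, 1841 by DESeq2 and 0 to 2616 on leaving out 1 library. The combination against Lupron gave 0, 2 to 7 under other scalings and filters, 206 with the compared groups alone, 236 by DESeq2 and 0 to 210. The combination against IgG gave 1, 0 to 4 under other scalings, filters and designs, 26 without IgG replicates 2 and 3, 2094 by DESeq2 and 0 to 2229. Lupron against IgG gave 0, 404 by DESeq2 and 0 to 672. The Lupron average, the interaction and the combination against anti-CSF1 gave 0, and 12, 188 and 6 by DESeq2. Of the tested genes, depth limited Car9, Eno2, Ankrd37 and Pfkfb4 most, at 7, 24, 29 and 48 counts in their lowest libraries.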
